A study of Mus musculus with 8 samples.

Results

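Phagocytic and Fc receptors are the surface proteins with which a macrophage binds antibody-coated particles, dying cells, lipids and microbes before it engulfs them. The genes described here are the 10 whose symbol in the deposited table is Fcgr1, Fcgr2b, Fcgr3, Fcer1g, Tyrobp, Trem2, Mertk, Axl, Clec7a or Msr1, of 22063 genes in all. They were measured by RNA-seq in 8 mouse libraries, 4 labelled control and 4 labelled control with tranilast. The series design places all of the mice on a high-fat, high-cholesterol (HFHC) diet, in which nonalcoholic steatohepatitis develops, and asks what tranilast, an anti-allergic drug, changes in the liver. The labels give the genotype of every library as WT and the tissue as liver. The study's methods describe male C57BL/6J mice and a carboxymethylcellulose vehicle, but neither the labels nor the methods tie an age, a dose or an animal to a library, so that p-values measure the spread between these libraries, which may be technical.

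Activating Fc receptors and several other receptors of this group have no signalling motif of their own. They pair with the adaptors encoded by Fcer1g (the common gamma chain) or Tyrobp (DAP12), whose short cytoplasmic tails carry an immunoreceptor tyrosine-based activation motif (ITAM). When receptors cluster on a target, kinases of the Src family phosphorylate the ITAM, the kinase Syk docks there, and actin is pushed around the particle. Fcgr2b opposes this with an inhibitory motif (ITIM) that recruits the phosphatase SHIP1. Axl and Mertk are receptor tyrosine kinases of the TAM family that recognise dying cells through bridging ligands, Clec7a (Dectin-1) binds fungal beta-glucan, and Msr1 binds modified lipoproteins. Trem2 senses lipids and is known for lipid-associated macrophages in fatty liver.

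The libraries held between 14585153 and 15618787 counts in the control group and between 12053036 and 14679386 in the tranilast group. A count of 0 therefore allows up to 3 counts, or 0.192 to 0.249 CPM (a count relative to the sum of its library), a limit that covers counting error only. The tissue label was checked against marker genes. All 10 macrophage markers were present, whereas 1 of 9 hepatocyte markers had a mean above 10 counts, and no library held more than 2 counts of Alb, which encodes albumin. Clec4f, Timd4 and Vsig4, which define resident Kupffer cells, were at 0 in every library. Lists for neutrophils, B cells, T cells, NK cells, mast cells, dendritic cells, liver endothelial cells and stellate cells held at most 0.000388% of the counts of a library. The defining markers of hepatocytes and Kupffer cells are therefore absent or near 0 in libraries labelled liver, and the genes below are described as measured, without a cell type.

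The sequences shown first are those on which the counting and the signalling of these genes rest. The ITAM-coding stretches of the adaptors come from the principal GENCODE M21 transcripts, with the codons of the motif's tyrosines in capitals. The Fcer1g stretch covers residues 65 to 79 and is split by an intron between exons 4 and 5 (GRCm38, chr1:171229889-171230072, minus strand), and the Tyrobp stretch covers residues 92 to 106 and is split likewise between exons 4 and 5 (GRCm38, chr7:30415670-30417382, plus strand).
Fcer1g ITAM: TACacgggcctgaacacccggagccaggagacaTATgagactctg
Tyrobp ITAM: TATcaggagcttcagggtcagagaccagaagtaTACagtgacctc
Both stretches are 45 bases long and hold the pair of tyrosines at the same spacing. Among the principal proteins of the 10 genes, the pattern of paired tyrosines was found in these adaptors and in no receptor.

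Fcgr2b and Fcgr3 are neighbours on chromosome 1 that share coding sequence, which bears on how their reads were assigned. Their longest identical coding stretch is 129 bases, in exons 3 and 4 of both (GRCm38, chr1:170966674-170968081 for Fcgr2b and chr1:171054167-171057792 for Fcgr3, minus strand), and encodes part of the extracellular region.
Fcgr2b and Fcgr3: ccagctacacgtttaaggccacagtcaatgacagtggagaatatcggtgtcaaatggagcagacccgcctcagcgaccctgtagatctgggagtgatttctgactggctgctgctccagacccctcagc
Of all 50-base windows of the Fcgr3 coding sequence, 22.1% were also in Fcgr2b, against 6.27% of 100-base windows and 0 of 652 windows of 150 bases. No window of 100 bases was shared with Fcgr1 or Fcgr4.

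Promoters of the Fc receptor genes are shown to set Fcgr1, which had the lowest log2 fold change of the group, beside its relatives Fcgr3 and Fcgr2b, which were not called. RefSeq on GRCm38.p6 gave the 300 bases from 250 before to 50 after the start for 8 of the 10 genes, all but Tyrobp and Msr1. Capitals mark GAGGAA or its reverse TTCCTC, the core of the sites bound by PU.1, and TTCNNNGAA, the core of STAT sites, both searched on either strand.
Fcgr1 (chr3:96293920-96294219, minus strand): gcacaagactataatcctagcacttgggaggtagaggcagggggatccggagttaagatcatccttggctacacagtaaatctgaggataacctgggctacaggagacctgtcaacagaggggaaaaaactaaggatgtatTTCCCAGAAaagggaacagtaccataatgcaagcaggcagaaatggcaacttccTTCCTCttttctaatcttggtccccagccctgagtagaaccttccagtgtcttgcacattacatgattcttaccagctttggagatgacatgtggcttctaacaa
Fcgr3 (chr1:171059354-171059653, minus strand): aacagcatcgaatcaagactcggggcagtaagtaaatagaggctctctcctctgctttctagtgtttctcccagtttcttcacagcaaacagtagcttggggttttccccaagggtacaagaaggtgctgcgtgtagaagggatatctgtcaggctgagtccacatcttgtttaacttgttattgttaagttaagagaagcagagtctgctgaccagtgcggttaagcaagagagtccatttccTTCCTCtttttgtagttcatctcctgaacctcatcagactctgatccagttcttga
Fcgr2b (chr1:170976022-170976321, minus strand): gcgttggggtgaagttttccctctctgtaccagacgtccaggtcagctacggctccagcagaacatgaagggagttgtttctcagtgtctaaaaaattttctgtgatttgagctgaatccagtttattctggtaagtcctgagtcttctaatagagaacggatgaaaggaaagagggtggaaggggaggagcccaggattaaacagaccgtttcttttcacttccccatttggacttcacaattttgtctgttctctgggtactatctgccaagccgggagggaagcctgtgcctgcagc
The PU.1 core was in 5 of the 8 promoters (Fcgr1, Fcgr3, Trem2, Axl and Clec7a) and in 28.3% of 27025 mouse promoters of this length. TTCNNNGAA was in 1 of the 8, Fcgr1, at positions -109 to -101 from the start, and in 8.47% of all promoters. The AP-1 core TGANTCA was in Trem2 alone (7.93% of all), and neither the paired half-sites of the interferon-stimulated response element (3.49%) nor the E-box CACGTG (7.24%) was in any of the 8. The promoter of Fcgr4, a gene outside the 10, held a PU.1 core (-22 to -17) and the interferon half-sites (-73 to -64). The RefSeq starts of Fcgr3 and Fcgr2b, and the whole windows printed for them, lie inside the spans that GENCODE gives these genes. The sites found are matches of letters in a window and do not show that a factor binds.

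Levels were first compared between genes in FPKM, the deposited unit that divides reads by transcript length and library depth. Tyrobp was the most abundant of the 10, with a mean of 298.1 FPKM over the 8 libraries (268.2 to 321.8) and rank 206 of all genes in the table. It was followed by Msr1 with 138.0, Trem2 with 110.2 and Fcer1g with 101.4 FPKM. The adaptors and the lipid-binding receptors thus stood at the top of the order, although the ranges of Trem2 and Fcer1g overlapped. Fcgr1 had a mean of 37.8 FPKM, Fcgr2b 14.4, Fcgr3 9.64, Axl 6.79 and Clec7a 1.54 FPKM. The ranges of Fcgr3 and Axl overlapped, and all other neighbours in the order were apart. Mertk, the receptor through which many tissue macrophages clear dying cells, was practically absent, with 1 count in control replicate 4, 1 in tranilast replicate 4 and 0 in the other 6 libraries. It did not pass the expression filter and was not tested.

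**Figure D1:**
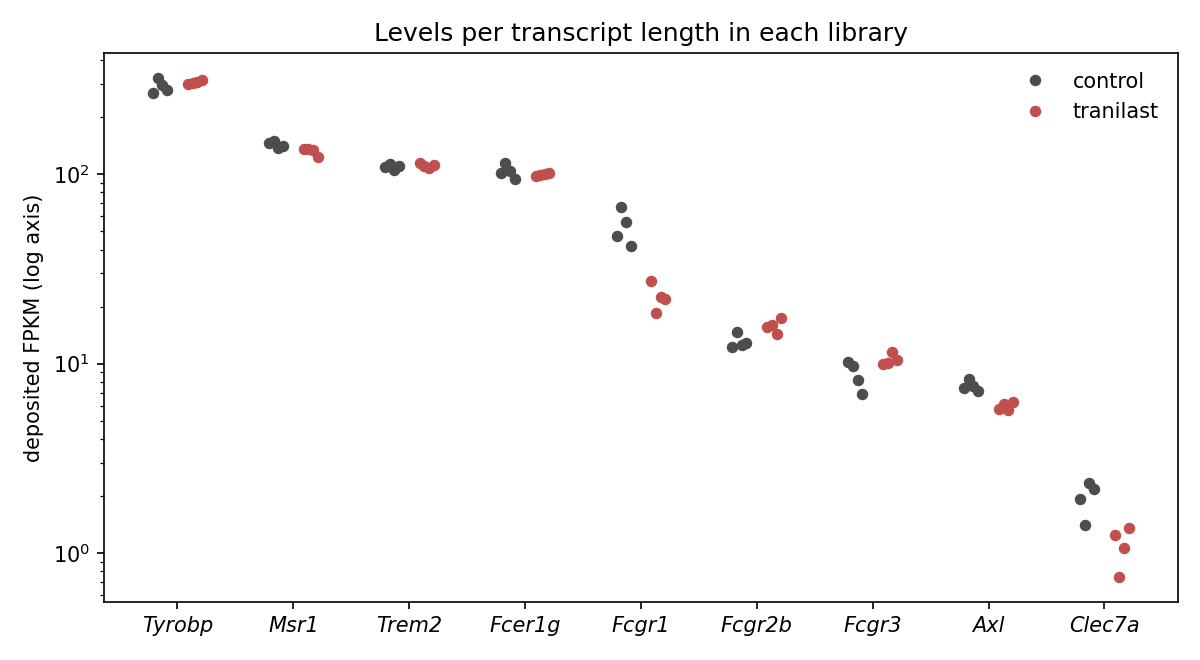
Deposited FPKM (log axis) of 9 genes in each of the 4 control (grey) and 4 tranilast (red) libraries, ordered by mean level. Tyrobp has a mean of 298.1 FPKM and Clec7a of 1.54, and Fcgr1 spans 18.5 to 67.2 FPKM, with its tranilast libraries below its control libraries. Mertk is left out because it was at 0 FPKM in 6 libraries.

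Tranilast was compared with control by the quasi-likelihood test of edgeR over 10770 genes, and a gene was called at an adjusted p under 0.05. Among the 9 tested genes of this group, 6 were lower with tranilast (Fcgr1, Clec7a, Axl, Msr1, Fcer1g and Trem2), 0 were higher, and Fcgr3, Fcgr2b and Tyrobp were not called. Over all tested genes, 28.8% were called lower and 28.2% higher. The groups of libraries did not overlap for 5 of the 9, all lower, against 25.2% of all genes that were lower without overlap and 24.5% that were higher without overlap. The median log2 fold change of the 9 was -0.17, against 0.008 over all genes, and their median absolute change was 0.17, against 0.21. None of the 9 reached the absolute log2 fold change of 1.5 that the study's methods name, a rule met by 1.11% of all genes. The split of all calls depended on scaling: 3039 higher and 3104 lower with TMM factors became 4613 higher and 1893 lower with library size alone, where the median of all genes was 0.125 (0.103 in FPKM with 1 added). Changes below use TMM. In bulk libraries fewer cells of a type and less RNA per cell cannot be told apart.

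**Figure D2:**
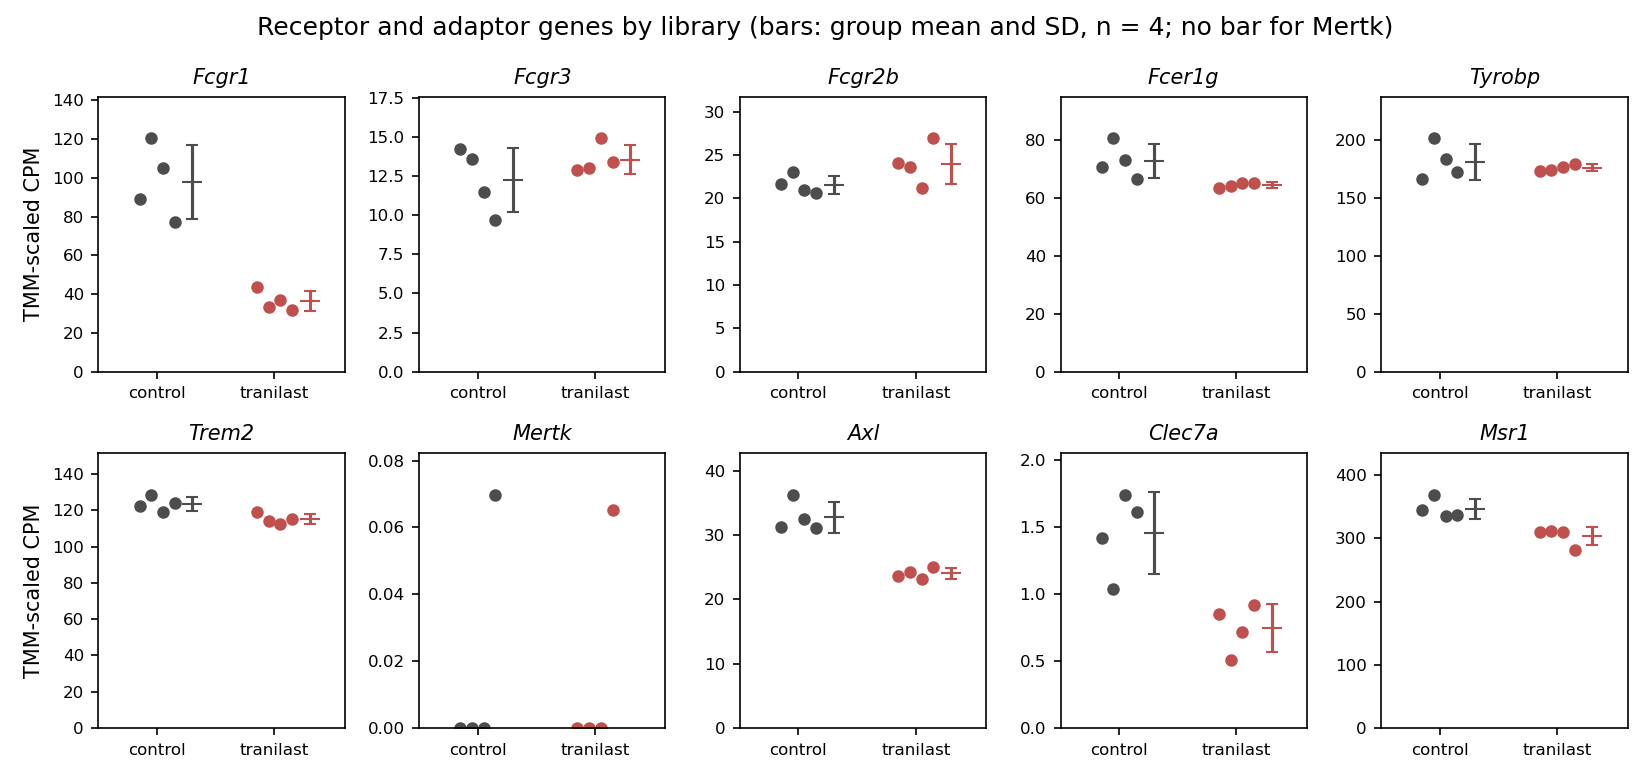
TMM-scaled CPM (linear axes from 0) of each of the 10 genes in the 4 control and 4 tranilast libraries, with the group mean and SD beside the points. Fcgr1 lies between 77.1 and 120.3 CPM in control and between 31.9 and 43.7 CPM with tranilast, and Mertk has 1 count in 1 library of each group.

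Fcgr1 encodes CD64, the high-affinity activating receptor for IgG. It had 88.9, 120.3, 105.3 and 77.1 CPM in control replicates 1 to 4, and 43.7, 33.4, 37.1 and 31.9 CPM in tranilast replicates 1 to 4. Every tranilast library was below every control library, and control replicate 2 was the highest. The mean was 97.9 ± 18.9 CPM (SD, n = 4) in control and 36.5 ± 5.24 CPM (SD, n = 4) with tranilast, a level 2.68 times higher in control. Its log2 fold change was -1.42 (SE 0.11, 95% CI -1.66 to -1.19, edgeR adjusted p = 5.1e-09), and 64 of the tested genes had a lower value. Fcgr1 (ENSMUSG00000015947) lies on GRCm38 at chr3:96282909-96293969 on the minus strand. The fall held in every alternative setting that kept the same call rule, with values between -1.52 and -1.18.

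Fcgr3, the low-affinity activating receptor on chromosome 1 (ENSMUSG00000059498, chr1:171051174-171064935, minus strand), did not follow Fcgr1. It had 14.2, 13.6, 11.5 and 9.7 CPM in the control replicates and 12.9, 13.0, 14.9 and 13.4 CPM in the tranilast replicates. The groups overlapped, and the spread was wider in control. The log2 fold change was 0.15 (SE 0.12, 95% CI -0.10 to 0.39, edgeR adjusted p = 0.29). Fcgr4, the remaining activating receptor for IgG and a partner of the gamma chain, was low in all libraries and had a log2 fold change of -0.31 (SE 0.27, edgeR adjusted p = 0.34).

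Fcgr2b, the inhibitory receptor (ENSMUSG00000026656, chr1:170958617-170976547, minus strand), had 21.6, 23.0, 21.0 and 20.6 CPM in the control replicates and 24.1, 23.6, 21.2 and 26.9 CPM in the tranilast replicates. Tranilast replicate 3 lay within the control range and the other tranilast libraries above it. The log2 fold change was 0.15 (SE 0.08, 95% CI -0.01 to 0.32, edgeR adjusted p = 0.11). With tranilast replicate 3 left out it was 0.21 and called (edgeR adjusted p = 0.037), and it was also called at 0.27 with library size alone (edgeR adjusted p = 0.0073).

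The deposited counts of Fcgr2b and Fcgr3 were not whole numbers in 7 of 8 libraries each, whereas the sum of both was whole in all 8, to a tolerance of 1e-06. Reads that both genes share could have been split between them in the counting, so the value of each gene alone is uncertain. The sums were 503, 527, 486 and 434 counts in the control replicates and 520, 506, 452 and 619 counts in the tranilast replicates. Fitted as 1 gene, a choice made after the data were seen, the pair had a log2 fold change of 0.15 (SE 0.067, 95% CI 0.012 to 0.29, edgeR adjusted p = 0.060). The share of the sum assigned to Fcgr2b ranged from 60.4% to 67.9% in control and from 58.7% to 66.6% with tranilast, and the groups overlapped.

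Within a library, ratios of FPKM do not depend on the scaling between libraries. The 5 ratios that could be computed were tested by an exact two-sided permutation test, whose smallest p for 4 against 4 is 0.0286, and p-values were adjusted over the 5 by the Benjamini-Hochberg method. The ratio of activating receptors (Fcgr1, Fcgr3 and Fcgr4 summed) to the inhibitory Fcgr2b was 4.78, 5.35, 5.29 and 3.91 in the control replicates and 2.49, 1.91, 2.46 and 1.96 in the tranilast replicates. The groups did not overlap. The geometric mean was 4.8 in control and 2.19 with tranilast, a log2 difference of -1.13 (exact permutation p = 0.0286, adjusted p = 0.0477). Most of the activating sum was Fcgr1, which made up 80.4%, 85.5%, 84.1% and 83.1% of it in the control replicates and 70.4%, 60.5%, 64.4% and 64.9% in the tranilast replicates. Fcgr1 remained the largest part of the activating FPKM in all 8 libraries. Fcgr3 and Fcgr2b stand on opposite sides of the activating to inhibitory ratio, so the uncertain split of their reads also bears on its values.

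**Figure D3:**
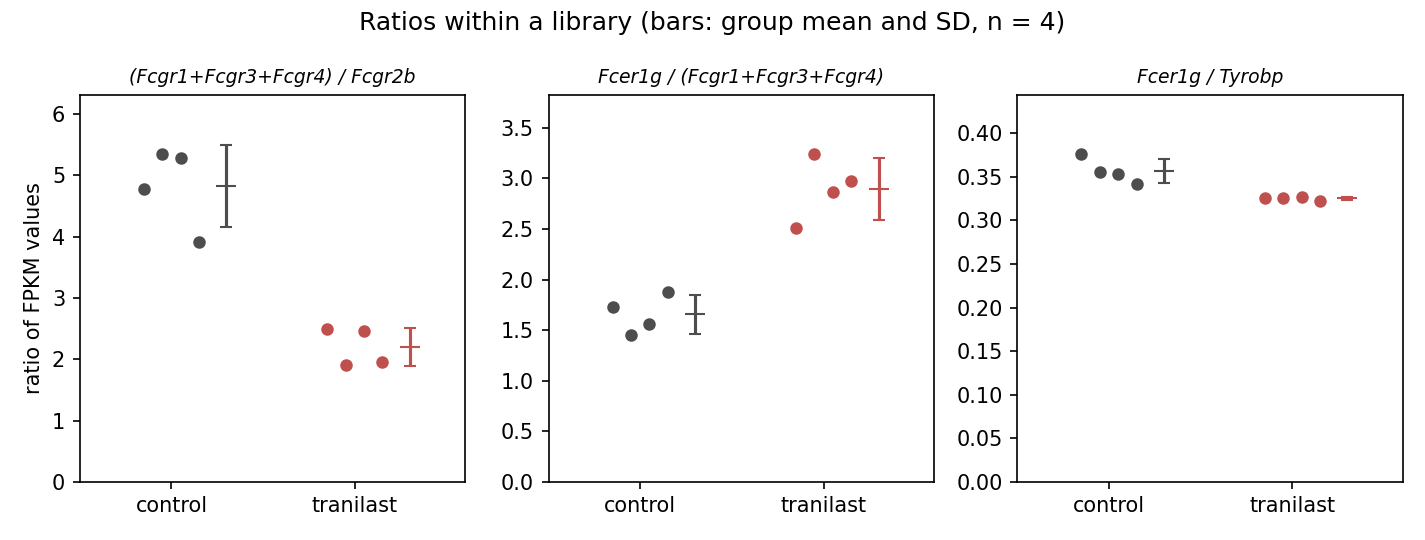
Ratios of deposited FPKM values within each library (linear axes from 0), with the arithmetic mean and SD of each group. The activating to inhibitory ratio lies between 3.91 and 5.35 in control and between 1.91 and 2.49 with tranilast, and the other panels show the gamma chain against its receptors and against Tyrobp.

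Fcer1g, the gamma chain that activating Fc receptors need to reach the surface and to signal (ENSMUSG00000058715, chr1:171229572-171234365, minus strand), had 70.5, 80.4, 72.9 and 66.4 CPM in the control replicates and 63.3, 63.9, 65.2 and 65.1 CPM in the tranilast replicates. Every tranilast library was below the lowest control library, by a narrow margin, and the tranilast libraries were close together. The fold change was small, at -0.17 on the log2 scale (SE 0.053, 95% CI -0.28 to -0.06, edgeR adjusted p = 0.0099). The call was lost with upper-quartile factors (-0.105), with library size alone (-0.056) and in FPKM (-0.052). Relative to the summed activating receptors, Fcer1g stood higher with tranilast, at a geometric mean of 2.88 against 1.65 in control. The log2 difference was 0.81 (exact permutation p = 0.0286, adjusted p = 0.0477). Fcgr1, which fell, made up most of the receptor sum in every library, and Fcer1g itself did not rise.

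Tyrobp, the DAP12 adaptor (ENSMUSG00000030579, chr7:30413760-30417585, plus strand), had 166.1, 200.9, 183.2 and 171.6 CPM in the control replicates and 172.5, 173.7, 176.5 and 179.3 CPM in the tranilast replicates. The tranilast libraries lay inside the control range. The log2 fold change was -0.04 (SE 0.047, 95% CI -0.14 to 0.06, edgeR adjusted p = 0.49), and its sign turned with upper-quartile factors, library size, FPKM or without control replicate 2 (0.014). The ratio of Fcer1g to Tyrobp, which no scaling affects, was 0.376, 0.355, 0.353 and 0.342 in the control replicates and 0.325, 0.326, 0.327 and 0.322 in the tranilast replicates. Here the groups did not overlap, with a log2 difference of -0.13 (exact permutation p = 0.0286, adjusted p = 0.0477).

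Trem2, the lipid-sensing receptor that signals through DAP12 (ENSMUSG00000023992, chr17:48346401-48354147, plus strand), had 122.5, 128.6, 118.8 and 124.2 CPM in the control replicates and 118.9, 114.2, 112.4 and 115.3 CPM in the tranilast replicates. Tranilast replicate 1 lay at the level of control replicate 3, so that the groups overlapped. The log2 fold change was -0.10 (SE 0.037, 95% CI -0.18 to -0.02, edgeR adjusted p = 0.030), and its sign turned with library size alone (0.017) and in FPKM (0.016). The call was lost with upper-quartile factors (-0.032), without control replicate 2 (-0.081) or 4 (-0.098) and without tranilast replicate 2 (-0.093), 3 (-0.087) or 4 (-0.095). The ratio of Trem2 to Tyrobp had a log2 difference of -0.06 (exact permutation p = 0.314, adjusted p = 0.314).

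Axl, the TAM kinase that macrophages express under inflammatory signals (ENSMUSG00000002602, chr7:25757273-25788705, minus strand), had 31.2, 36.3, 32.5 and 31.1 CPM in the control replicates and 23.6, 24.3, 23.2 and 25.1 CPM in the tranilast replicates. All tranilast libraries were below all control libraries. The mean fell from 32.8 ± 2.46 to 24.0 ± 0.825 CPM (SD, n = 4 each), a log2 fold change of -0.45 (SE 0.068, 95% CI -0.59 to -0.30, edgeR adjusted p = 2.3e-05). It was the only TAM receptor tested, since Mertk and Tyro3 (5 to 17 counts) did not pass the filter. Of the bridging ligands, Gas6 had a log2 fold change of 0.60 (SE 0.28, edgeR adjusted p = 0.075) and Pros1 of -0.10 (SE 0.081, edgeR adjusted p = 0.28), so neither was called. Gas6 had only 13 to 27 counts, and its tranilast libraries all lay above its control libraries. With upper-quartile factors its log2 fold change was 0.665, and 1 gene of the TAM list was called higher, against 0. A ratio of Mertk to Axl could not be computed because Mertk was at 0 FPKM in 6 libraries.

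Clec7a (ENSMUSG00000079293, chr6:129461591-129472779, minus strand) was measured on few reads, 20, 15, 26 and 23 counts in the control replicates and 12, 7, 9 and 14 counts in the tranilast replicates. The highest tranilast library was just below the lowest control library. The level was 1.45 ± 0.302 CPM in control and 0.748 ± 0.18 CPM with tranilast (SD, n = 4 each), with a log2 fold change of -0.94 and a wide interval (SE 0.33, 95% CI -1.63 to -0.26, edgeR adjusted p = 0.019). The call was lost without control replicate 3 (-0.845) and without tranilast replicate 2 (-0.794). In FPKM with 1 added, which shrinks the change of a low gene, the value was -0.50, and Clec7a did not pass a filter of at least 10 counts in every library. Card9, the adaptor downstream of Clec7a, had a log2 fold change of -0.04 (SE 0.06, edgeR adjusted p = 0.54).

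Msr1, the class A scavenger receptor (ENSMUSG00000025044, chr8:39581685-39642673, minus strand), had 344.4, 369.2, 336.2 and 337.2 CPM in the control replicates and 310.9, 311.2, 309.8 and 282.3 CPM in the tranilast replicates. The groups did not overlap, and tranilast replicate 4 was the lowest by a clear gap. The log2 fold change was -0.19 (SE 0.037, 95% CI -0.27 to -0.11, edgeR adjusted p = 0.00025), and the call was lost with library size alone (-0.076). Cd36, a class B scavenger receptor for oxidised lipoprotein, fell further, with a log2 fold change of -0.76 (SE 0.058, edgeR adjusted p = 3.2e-09), whereas Marco had 0 to 2 counts. The ratio of Msr1 to Clec7a had a geometric mean of 74.4 in control and 122.6 with tranilast (log2 difference 0.72, exact permutation p = 0.0571, adjusted p = 0.0714).

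**Figure D4:**
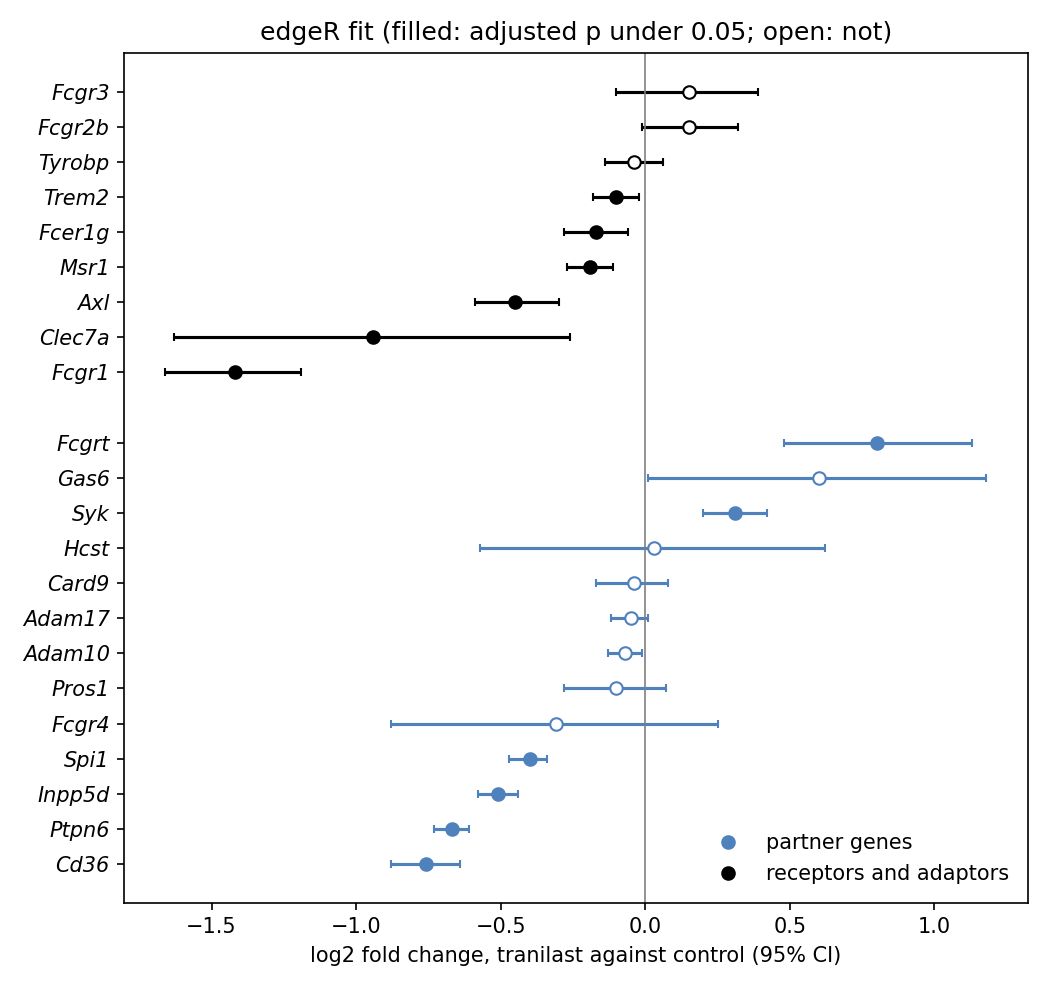
log2 fold change of tranilast against control with its 95% CI for the 9 tested genes (black) and for partner genes chosen by their known role (blue), filled where the edgeR adjusted p was under 0.05. The 9 genes run from -1.42 for Fcgr1 to 0.15 for Fcgr2b and Fcgr3, and the partners from -0.76 for Cd36 to 0.80 for Fcgrt.

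Among the control libraries, replicate 2 had the highest CPM for 7 of the 9 tested genes (all but Fcgr3 and Clec7a), and replicate 4 the lowest for 5. Spi1, which encodes PU.1, fell with a log2 fold change of -0.40 (SE 0.031, edgeR adjusted p = 3.2e-09) and had no overlap between groups. Of 17 tested transcription factors known to act on these genes, 9 were lower and 5 higher, beside 28.8% and 28.2% of all genes. The split was 8 lower and 6 higher with library size alone, and 5 and 4 in FPKM. Runx1 fell (-0.42), and Cebpa (0.33), Cebpb (0.37) and Nr1h3 (0.72) rose, the last on only 22 to 46 counts. Whether any of these factors bears on the receptors was not tested.

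Macrophage marker genes moved with the groups to a small degree. The 10 markers held 0.993% to 1.05% of the unscaled counts in the control libraries and 0.937% to 0.99% with tranilast. Csf1r, the receptor for the macrophage growth factor, had a log2 fold change of -0.16 (edgeR adjusted p = 6.8e-06) whose sign turned in FPKM. Lyz2 had -0.13 (edgeR adjusted p = 0.001) and Adgre1, the gene of F4/80, 0.21 (edgeR adjusted p = 0.002). With library size alone, as in the shares above, the values were -0.039 for Csf1r, -0.013 for Lyz2 and 0.322 for Adgre1. For comparison, the log2 fold changes with TMM were -0.10 for Trem2, -0.17 for Fcer1g and -0.19 for Msr1, and -1.42 for Fcgr1. The part of the marker genes in these results was not tested.

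The pathway around the receptors was read from lists chosen by known function. These counts include the genes described above and are to be read beside the shares of all genes, 28.2% higher and 28.8% lower. With library size alone the splits moved with that of all genes, to 10 lower and 6 higher for the ITAM signalling list, 14 and 7 for the phagosome actin list, 3 and 1 for the complement receptors and integrins, 1 and 2 for the Fc receptors, 2 and 1 for the DAP12 and DAP10 list, 1 and 1 for the TAM list, 4 and 2 for the scavenger receptors, 1 and 2 for the sheddases and 5 and 7 for the apoptotic cell list. The signs of Pros1, Adam10, Adam17, Card9 and Lgals3 turned as well. Of 7 tested Fc receptor genes, 2 were lower (Fcgr1 and Fcer1g) and 1 was higher, Fcgrt, the neonatal Fc receptor that recycles IgG (0.80, SE 0.15, edgeR adjusted p = 0.00024). Of 10 tested adaptors and partner receptors of DAP12 and DAP10, 4 were lower and 0 higher. The clearest was Clec5a, a DAP12-coupled receptor of myeloid cells, with a log2 fold change of -0.75 (SE 0.036, edgeR adjusted p = 5.7e-12), and Cd300c2 fell as well (-0.41). Hcst, the DAP10 adaptor, had a log2 fold change of 0.03 (SE 0.28, edgeR adjusted p = 0.94).

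Downstream of the ITAM, 14 of 22 tested enzymes and adaptors were lower and 2 were higher, with a median log2 fold change of -0.16. The adaptor Blnk fell by 0.65 on the log2 scale and Pik3cd, a PI3-kinase subunit, by 0.46. Syk rose instead, from 49.6 ± 2.12 to 61.5 ± 3.52 CPM (SD, n = 4 each), a log2 fold change of 0.31 (SE 0.052, edgeR adjusted p = 6.4e-05), as did the docking protein Gab2 (0.56). Of the phosphatases that act with ITIM receptors, Ptpn6 (SHP-1) was lower at -0.67 (SE 0.027, edgeR adjusted p = 5.2e-13), as was Inpp5d (SHIP1), the partner of Fcgr2b, at -0.51 (SE 0.033, edgeR adjusted p = 3.7e-10), whereas Ptpn11 (SHP-2) had a log2 fold change of -0.04 (edgeR adjusted p = 0.31) and was not called. In the list of ITIM phosphatases and inhibitory receptors, 8 of 19 tested genes were lower and 5 higher, and with library size alone or in FPKM 6 were lower and 6 higher. Clec4a2 (-1.45) and Clec12a (-0.82) fell and Cd33 (0.91), Cd200r1 (0.66) and Lilrb4a (0.65) rose. Clec4a2 was measured on few reads, 9 to 56 counts, and stood at -0.61 in FPKM with 1 added. Cd200r1 had 39 to 90 counts. Siglec1 (-1.06), a sialic acid receptor, also fell, and like some other receptors in this list it has no ITIM of its own.

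Among 11 C-type lectin receptors, 4 were lower and 2 higher (4 and 3 with library size alone), and the 2 were Clec4e (Mincle, 0.73, edgeR adjusted p = 3e-11) and Clec4d (0.32), receptors for microbial glycolipids that signal through the gamma chain. Among 10 scavenger receptors, 6 were lower, including Colec12 (-0.60) and Cxcl16 (-0.41), and 1 was higher, Cd68 (0.16). In the list of complement receptors and phagocytic integrins, 7 of 12 tested genes were called, all lower. The list also holds integrin adaptors such as Tln1 and complement proteins such as Cfp. C5ar1 stood at -0.33, C3ar1 at -0.29 with groups that overlapped, and the abundant Tln1 at -0.16. In the list for recognition and engulfment of apoptotic cells, 8 of 19 were lower and 5 higher. Mfge8, a bridging protein for phosphatidylserine, rose (0.33), as did Itgb5 (0.31) and Abca7 (0.24), whereas Elmo1 (-0.52) and Rac1 (-0.26), which drive the engulfing membrane, fell. Among 4 TAM genes, 2 were lower (Axl, and Lgals3, a ligand of Mertk, at -0.11) and 0 higher.

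Machinery of the phagocytic cup and phagosome followed with 21 of 31 tested genes lower and 5 higher (median -0.18). Actr3 (-0.47) and Arpc2 (-0.42) of the Arp2/3 complex and its activator Was (-0.44) fell, while Cybb (0.08) of the NADPH oxidase and Dnm2 (0.26), a GTPase of membrane scission, rose. In the list of receptor sheddases, which cut receptors such as Trem2, Axl and Mertk from the surface, and their partners, 2 of 7 tested genes were lower, the sheddase Adam9 (-0.25) and the partner Tspan14 (-0.21), and 1 was higher. Adam10 had a log2 fold change of -0.07 (SE 0.029, edgeR adjusted p = 0.056) and Adam17 of -0.05 (SE 0.03, edgeR adjusted p = 0.14), and Adam8 rose (0.65). In the KEGG annotation of the deposited table, 39 of the 82 tested genes of Fc gamma R-mediated phagocytosis were lower and 16 higher (median -0.16), and 38 of the 113 tested phagosome genes were lower and 29 higher (median -0.02).

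**Figure D5:**
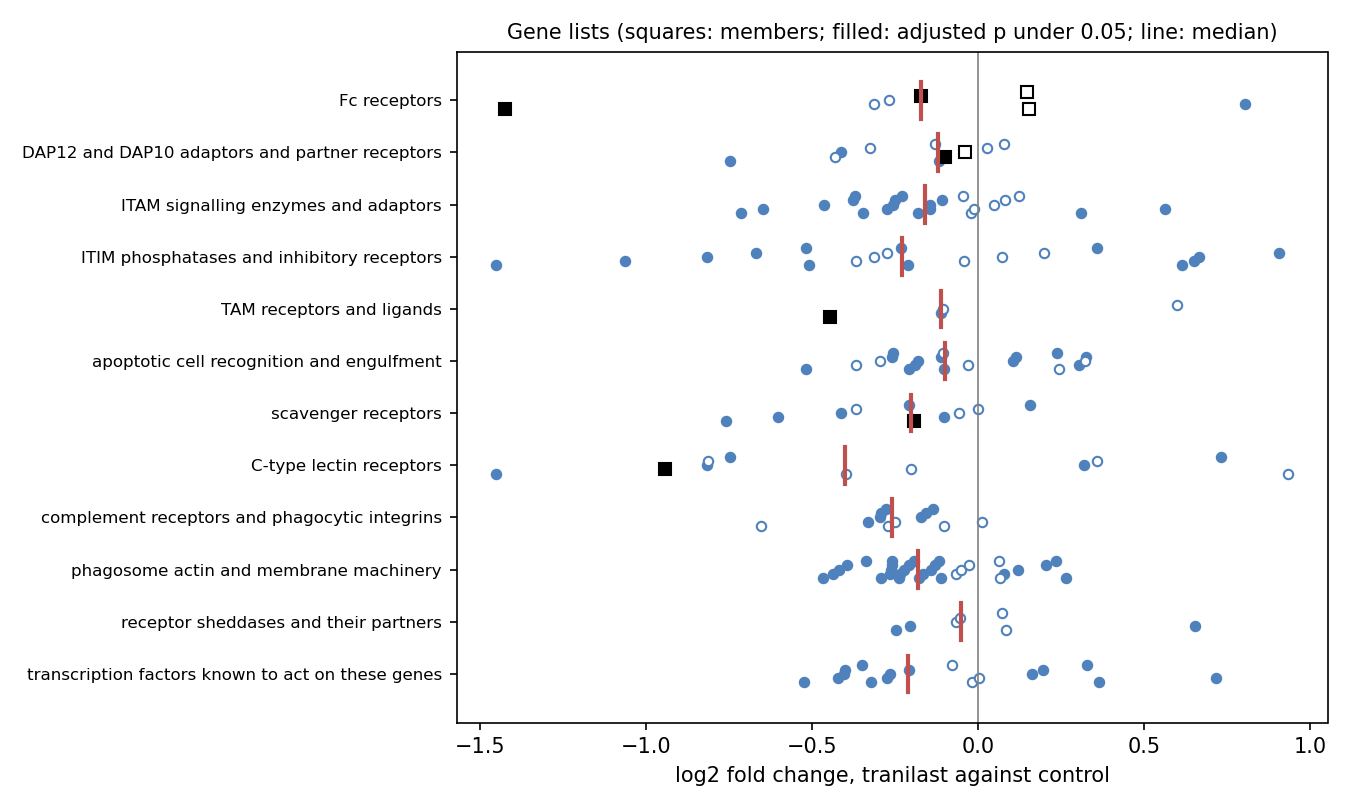
log2 fold change of each tested gene in the lists (a row each), with the median as a red line, members of the receptor group as black squares and other genes as blue circles, filled where the edgeR adjusted p was under 0.05. In the phagosome actin list 21 of 31 genes lie to the left of 0 as filled circles, and the ITIM and lectin lists spread to both sides.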

How the data were processed

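RNA-seq of 8 libraries labelled liver was analysed, 4 control and 4 tranilast, grouped by the sample titles. For each gene the authors deposited estimated counts, of which some are not whole, and FPKM, which also accounts for transcript length. Libraries were poly-A enriched and read from paired ends, as the methods state. The aligner, the counter and the genome build are not given in the sources used here. The labels name a NovaSeq instrument and the methods a HiSeq X-ten. Estimated counts were rounded, filtered by filterByExpr, scaled by TMM (factors 0.956 to 0.965 in control and 1.037 to 1.045 with tranilast) and tested with the quasi-likelihood test of edgeR 4.0.16 in R 4.3.3, Benjamini-Hochberg adjusted over 10770 genes. DESeq2 1.42.0, limma 3.58.1 (voom, and trend on FPKM), other scalings, filters, thresholds, a replicate block and each library left out were the alternatives. The code was tested on simulated data. Single values used exact permutation tests of log2 CPM with 0.1 added. Python 3.11.15, pandas 2.3.3 and scipy 1.17.1 were used. Coordinates are GENCODE M21 on GRCm38, matched for 21973 of 22063 identifiers. Promoters are RefSeq, GRCm38.p6, with chromosome 18 left out of the background.

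The members and lists were chosen with earlier results of these data known. Named were all members, direct partners chosen by role, markers that check the tissue, and in each list the most abundant gene and the called genes with the 3 highest and the 3 lowest log2 fold changes. The text gives a selection of these, and some items are not reported here.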

Additional observations from a re-analysis of the deposited data

Results flagged for a closer look

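Msr1 in the tranilast group was marked because 1 of its 4 libraries lay apart from the rest. Tranilast replicate 4 had 282.3 CPM, against 309.8 to 311.2 CPM in the other tranilast libraries, and its gap to the nearest made up 0.952 of the group's range on the log2 scale, above Dixon's critical value for 4 samples. In all, 28 groups of 4 libraries were examined in this way, and chance marks about 1 in 20. Without this library the log2 fold change of Msr1 was -0.154 (edgeR adjusted p = 0.00157).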

How the results depend on the processing

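The number of all genes called was within 1.5 times of 6143 in every alternative except the rule with a log2 fold change of 1.5 or more in either direction, where it was 120. Under that rule 0 of the receptor and adaptor genes were called lower, against 6, and the number was 3 with library size alone. Fcgr2b made the number called higher 1, against 0, with upper-quartile factors, with library size alone and in FPKM with 1 or 0.1 added, and when single libraries were left out that number ran from 0 to 1. The log2 fold change of Tyrobp turned to 0.027 with upper-quartile factors, 0.077 with library size, 0.08 in FPKM, and ran from -0.079 to 0.014 when single libraries were left out. That of Trem2 turned to 0.017 with library size and 0.016 in FPKM. Of the members tested, Fcgr1, Axl, Clec7a, Msr1, Fcer1g, Fcgr3 and Fcgr2b kept their direction in all alternatives that gave a value. The cause of these changes was not tested.

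The log2 difference in the ratio of activating to inhibitory receptors ran from -1.229 to -1.066 when single libraries were left out, and the smallest p that 4 against 3 allows is then 0.0571. With the replicate number as a block it was -1.131 in an exact sign-flip test, whose smallest p is 0.125. With the replicate block in edgeR 6009 genes were called, with the same calls among the receptor genes. The correlations of deviations between libraries of the same number were 0.077, 0.07, 0.01 and 0.232. The last, for replicate 4, was the highest of all pairs, but not every library correlated best with its own number. Deviations from a mean of 4 libraries are not independent, so these values cannot decide whether the libraries were paired. By label, the samples share only a number. Depth limits Clec7a, with 7 to 26 counts, and Mertk, with at most 1.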
